A study of Mus musculus with 96 samples.

Results

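IEG-high and IEG-low horizontal basal cells (HBCs) were the 24 cells of highest and the 24 cells of lowest immediate early gene (IEG) score among 96 single cells, and the 48 cells that ranked between them were kept for comparison. The score of a cell was the mean of log2(CPM + 1) over 6 genes, Fos, Fosb, Egr1, Jun, Junb and Atf3, where CPM is the count of a gene over the counts on all genes of that cell, spike-in left out, times 1000000. HBCs are the reserve stem cells of the olfactory epithelium (OE). They were isolated from wild type adult mice, 6 to 8 weeks old, whose OE was taken 2 days after methimazole, a drug that injures the OE, and were grown as primary culture on coated dishes in HBC medium. The 96 cells were the 2 sister cells of each of 48 divisions in culture, picked singly by mouth pipette, lysed with ERCC spike-in RNA and sequenced by G&T-seq, a full-length poly(A) protocol. No treatment, genotype or time point separated them, and the labels named no mouse or culture, so that all cells counted as 1 sample without replicates. The groups were also chosen by the counts themselves. Every difference between them is therefore a description of these cells, with no test, and the spread given is that over cells.

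Immediate early genes are transcribed within minutes of a stimulus without new protein synthesis, and their short-lived transcripts disappear again soon afterwards. Growth factors, stretch, wounding and tissue dissociation induce them, mostly through the ERK and p38 MAP kinases, serum response factor (SRF) with its ternary complex partners, and CREB. FOS and JUN proteins pair to form AP-1, EGR1 is a zinc finger factor, and ATF3 is a bZIP factor that is also induced by stress kinases and the integrated stress response.

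The promoters of the score genes Fos, Fosb and Jun and of Srf and Zfp36 are shown to set windows with motifs of this response beside one, that of Jun, in which none was found. The windows run from 250 bases before to 50 bases after the RefSeq start site (GRCm38.p6), 5′ to 3′ on the strand of the gene. Capitals mark the CRE core TGACG, the EGR motifs GCGGGGGCG and GCGTGGGCG, the AP-1 motif TGACTCA and the CArG box that SRF binds, each searched on both strands. The windows are chr12:85473640-85473939 on the plus strand for Fos, chr7:19309996-19310295 on the minus strand for Fosb, chr4:95052173-95052472 on the minus strand for Jun, chr17:46556113-46556412 on the minus strand for Srf and chr7:28379179-28379478 on the minus strand for Zfp36.
Fos: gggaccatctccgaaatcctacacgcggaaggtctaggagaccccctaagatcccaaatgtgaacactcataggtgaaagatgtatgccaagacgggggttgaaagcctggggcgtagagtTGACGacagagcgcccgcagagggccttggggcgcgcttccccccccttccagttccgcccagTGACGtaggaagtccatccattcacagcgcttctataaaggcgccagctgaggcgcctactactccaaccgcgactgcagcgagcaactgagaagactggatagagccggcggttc
Fosb: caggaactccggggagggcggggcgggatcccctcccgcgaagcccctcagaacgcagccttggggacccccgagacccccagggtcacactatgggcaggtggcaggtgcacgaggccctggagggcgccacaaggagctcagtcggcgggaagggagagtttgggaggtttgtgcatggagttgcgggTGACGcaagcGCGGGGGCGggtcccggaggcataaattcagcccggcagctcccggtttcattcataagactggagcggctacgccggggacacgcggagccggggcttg
Jun: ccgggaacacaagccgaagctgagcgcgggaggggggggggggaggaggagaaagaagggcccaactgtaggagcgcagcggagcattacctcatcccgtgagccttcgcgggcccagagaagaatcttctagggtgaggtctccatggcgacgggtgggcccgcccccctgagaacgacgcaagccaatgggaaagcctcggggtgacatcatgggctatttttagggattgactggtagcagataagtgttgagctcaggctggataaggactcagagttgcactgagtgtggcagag
Srf: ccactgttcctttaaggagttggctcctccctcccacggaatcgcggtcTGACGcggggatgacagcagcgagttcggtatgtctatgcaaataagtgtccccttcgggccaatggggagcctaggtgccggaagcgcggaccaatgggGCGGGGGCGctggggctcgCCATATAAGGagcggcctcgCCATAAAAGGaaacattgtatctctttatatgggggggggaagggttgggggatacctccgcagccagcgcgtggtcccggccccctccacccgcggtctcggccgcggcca
Zfp36: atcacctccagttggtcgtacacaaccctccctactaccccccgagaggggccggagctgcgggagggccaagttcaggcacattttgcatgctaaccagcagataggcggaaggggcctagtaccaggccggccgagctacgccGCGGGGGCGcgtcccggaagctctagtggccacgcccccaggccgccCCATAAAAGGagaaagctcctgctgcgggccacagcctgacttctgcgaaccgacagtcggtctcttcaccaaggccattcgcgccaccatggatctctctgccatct

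The Fos window held the CRE core at 129 and at 66 bases before the start, and the Fosb window held it at 60 bases and an EGR motif at 50 bases before the start. The Srf window held CArG boxes that begin 82 and 62 bases before the start, beside an EGR motif at 101 and a CRE core at 201 bases. The Jun window held none of these motifs, and neither did the windows of Dusp6 and Nfkbia, which are not printed. In the Zfp36 window a CArG box began at 58 bases and an EGR motif at 105 bases before the start. Of the 32851 windows of this length in the table, 20.8% held the CRE core, 3.47% an EGR motif, 5.20% the AP-1 motif and 1.63% a CArG box. Of the 9677 tested genes whose symbol was matched to a window, 36.2% held the CRE core in at least 1 window, 7.73% an EGR motif, 4.64% the AP-1 motif and 1.54% a CArG box. The presence of these letters is a description and not evidence of binding. As the symbols of the other tested genes, of 14448 in all, had no match, shares over the gene lists are not given.

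The score ran from 8.15 to 1.95 with no gap at either limit, and the 4 lowest IEG-low cells (1.95 to 2.21) stood apart from the next cell at 2.93. It was 6.76 ± 0.591 (SD over 24 cells) in IEG-high cells and 3.41 ± 0.720 (SD over 24 cells) in IEG-low cells. The last IEG-high cell had 6.08 and the first cell below it 6.07, and the first IEG-low cell had 4.30 against 4.31 for the cell above it. The groups are therefore the ends of a range with no break at the limits.

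**Figure D1:**
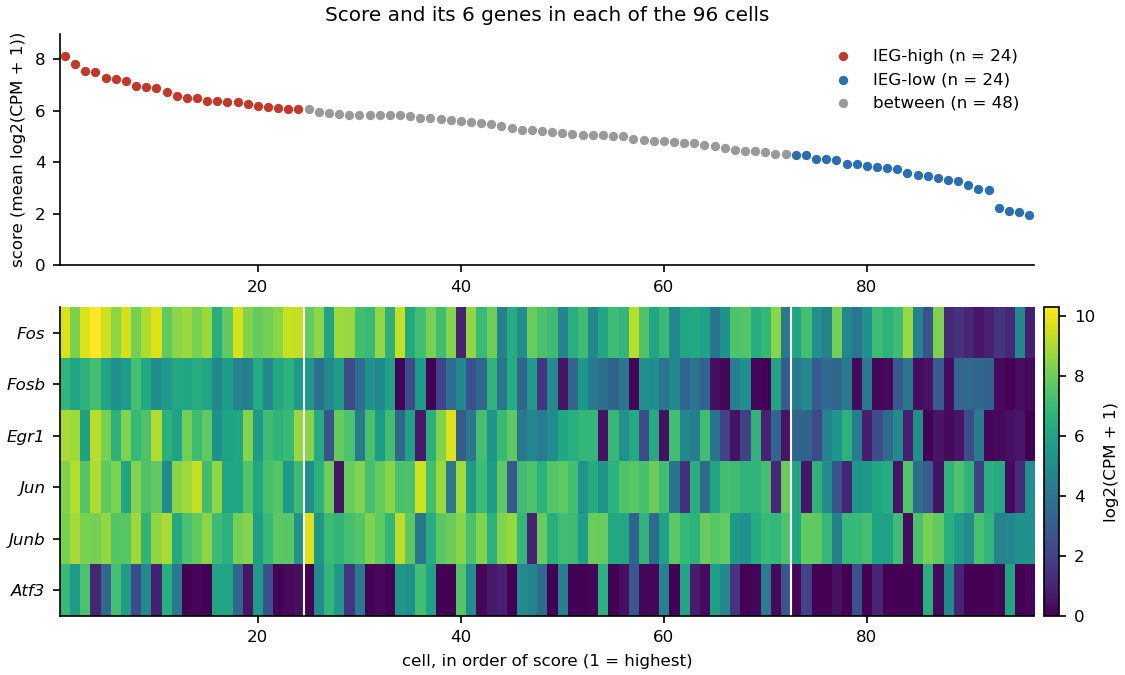
Score of each of the 96 cells in order of rank (top) and log2(CPM + 1) of its 6 genes in the same order (bottom, white lines at the group limits). The score falls from 8.15 to 1.95 without a step at either limit, Fos, Fosb and Egr1 darken to the right, and Atf3 is at 0 in 26 of the 96 cells.

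Fos had a CPM of 88.9 to 1252 (median 394) in IEG-high cells and of 0.561 to 421 (median 25.1) in IEG-low cells. Fosb, which codes for another FOS subunit, had 20.5 to 156 CPM (median 68.7) against 0 to 28.0 (median 7.02). Egr1 had 37.5 to 590 CPM (median 134) against 0 to 95.9 (median 4.02). All 24 IEG-high cells had at least 10 counts of each of these 3 genes, whereas 15 IEG-low cells had them for Fosb and 19 for Egr1. Fosb and Egr1 overlapped between the groups only at the edges of their ranges, whereas an IEG-low cell had more Fos than the median IEG-high cell.

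Jun had 28.9 to 665 CPM (median 185) in IEG-high and 0.224 to 178 (median 38.9) in IEG-low cells. Junb had 37.3 to 508 CPM (median 211) against 0.232 to 292 (median 96.3). Atf3 had 0 to 165 CPM (median 9.55) against 0 to 87.1 (median 0.0793). Jun and Junb were thus counted in nearly every cell of both groups, with broad overlap. Atf3 reached 10 counts in 19 IEG-high and 8 IEG-low cells, and 3 IEG-high cells had none.

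On the scale of mean log2(CPM + 1), on which the rule chose the cells, the differences were 4.93 for Egr1, 4.43 for Fos, 3.68 for Fosb, 3.20 for Jun, 2.35 for Atf3 and 1.50 for Junb. Over all couples of an IEG-high with an IEG-low cell, the IEG-high cell had the higher level in 99.3% for Fosb, 98.8% for Egr1 and 95.1% for Fos, but in 77.5% for Atf3. In TPM, which takes transcript length into account, the median levels of IEG-high cells were 299 for Fos, 196 for Junb, 95.2 for Jun, 50.8 for Egr1, 31.4 for Fosb and 8.06 for Atf3. In IEG-low cells the order was changed, with Junb highest at 84.1 TPM and Fos at 20.3 TPM.

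The 6 genes did not move as 1 block. Of the IEG-high cells, 8 had all 6 genes above the median of all cells and 19 had at least 5. Of the IEG-low cells, 7 had none above it and 16 had at most 1. Spearman correlations between the genes over the 96 cells were highest for Fos with Egr1 (0.54), Fos with Fosb (0.53) and Fosb with Egr1 (0.50). Junb followed Egr1 (0.43), Jun reached at most 0.28, and Atf3 lay between -0.12 with Egr1 and 0.22 with Jun. The genes of a cell share its depth, and these values describe the 96 cells only.

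Each gene was also compared between the 24 highest and 24 lowest cells of a score built from the other 5 genes, so that the gene did not choose its own cells. Egr1 then differed by 3.43, Fos by 3.33, Fosb by 2.22 and Jun by 1.68 in mean log2(CPM + 1). Junb differed by 0.52 and Atf3 by 0.38. Fos was higher in the chosen high cell in 85.1% of couples and Atf3 in 55.9%. The markers Fos and Egr1 therefore fitted the name of the groups, whereas the level of Atf3 was nearly unrelated to the other 5 genes, with a Spearman correlation of 0.07 to their score.

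Over the transcriptome, 14463 genes had at least 10 counts in 10% of cells and were compared. A gene was called when its mean log2(CPM + 1) differed by 1 or more. There were 661 genes (4.57%) called higher and 238 (1.65%) called lower in IEG-high cells, and the median difference over all genes was 0.03. When the same cells were scaled by ERCC, which was added to every lysate, the median shifted to 0.14 and 917 genes were higher and 153 lower, so that the share of higher genes among those called went from 73.5% to 85.7%. When ERCC scaling also chose the cells, 2139 genes were higher and 34 lower. Differences below are on the CPM scale.

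Depth, genes detected and the mitochondrial share were close in the groups, whereas the nuclear RNAs Neat1 and Malat1 were not. Counts on genes were 29454150 to 44849003 per cell, and the Spearman correlation of the score with them was -0.03 over the 96 cells. IEG-high cells had a log2 ratio of gene to ERCC counts of 5.05 ± 0.438 (SD over 24 cells) against 4.88 ± 0.458 in IEG-low cells, a difference of 0.17, and 12982 against 12777 genes detected. Mitochondrial counts made up 2.08% and 2.02%. Neat1 had a median of 1704 CPM in IEG-high and 824 in IEG-low cells, and Malat1 had 686 and 420. The IEG-high cell was higher in 75.2% of couples for Neat1 and in 70.1% for Malat1. The deposited names divide the cells into 12 sets of 8, and no source states how a set was handled. IEG-high cells came from 11 of the sets and IEG-low cells from 10, with 5 of the 8 cells of 1 set in the IEG-high group and none of another. The part of these values in the differences was not tested.

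Of 12 other AP-1 subunit genes compared, 3 were called higher (25.0%, against 4.57% of all genes) and none lower, with a median difference of 0.01. Within sets, that is, with the 2 highest and the 2 lowest cells taken from every set, 1 of the 12 was higher by 1 or more (8.33%, against 4.40% of all genes). Fosl1, which codes for the FOS relative FRA1 of migrating and basal epithelium, had a median of 72.3 CPM (0 to 387) in IEG-high, 39.6 in between and 24.9 (0.220 to 117) in IEG-low cells, a difference of 1.40. The small MAF gene Mafk differed by 1.19 and the CREB family gene Creb5 by 1.05, but within sets Fosl1 alone kept its difference (1.52), that of Creb5 was 0.49 and that of Mafk turned to -0.10. Fosl2 was near equal at medians of 43.9 and 41.1 CPM, and Jund had 6.30 and 4.15 CPM. Batf had a single count in 1 cell and was not compared.

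Of 35 other immediate early genes compared, 8 were called higher and none lower, which is 22.9% against 4.57% of all genes, and 30 of the 35 had a difference above 0. Their median difference was 0.45. Within sets, the median was 0.49 and 11 of the genes were higher by 1 or more, against 4.40% of all genes.

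Arc, best known as a plasticity gene of neurons and a target of SRF, had 26.7 to 2815 CPM (median 280.3) in IEG-high, a median of 139.8 in between and 0.257 to 1154 (median 83.6) in IEG-low cells. The Polo-like kinase gene Plk3 had 0 to 393 CPM (median 61.7) in IEG-high, a median of 36.6 in between and 0 to 122 (median 12.6) in IEG-low cells. The median of both genes thus followed the order of the groups, with differences of 2.07 for Arc and 2.51 for Plk3, and the ranges overlapped almost fully.

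Srf itself had a median of 13.4 CPM (0 to 58.5) in IEG-high, 7.75 in between and 1.24 (0 to 76.1) in IEG-low cells. Zfp36, whose product tristetraprolin destabilizes AU-rich mRNAs including many of this response, had a median of 16.9 CPM (0.150 to 142), 14.6 and 3.44 (0 to 66.6). Srf and Zfp36 differed by 1.51 and 1.56, and a link of these differences to the CArG boxes printed above was not tested. The orphan nuclear receptor gene Nr4a1 had a median of 23.7 CPM (0 to 116) in IEG-high cells but 0.253 in between and 0.422 (0 to 228) in IEG-low cells, so that it stood out in the IEG-high cells alone by its median.

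The serum- and glucocorticoid-induced kinase gene Sgk1 differed by 1.67, the C/EBP gene Cebpd by 1.17 and the clock repressor gene Bhlhe40 by 1.04. Just below the limit were Ier3 (0.99), Klf6 (0.98), Ccn1 (0.90) and Klf4 (0.89). Ier3, a survival factor gene, was abundant in both groups, with medians of 942 and 598 CPM. Myc differed by 0.43, Ier2 by 0.67 and Gadd45b by -0.33. Egr2 was counted in 5 cells and Nr4a3 in 3, and neither was compared.

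**Figure D2:**
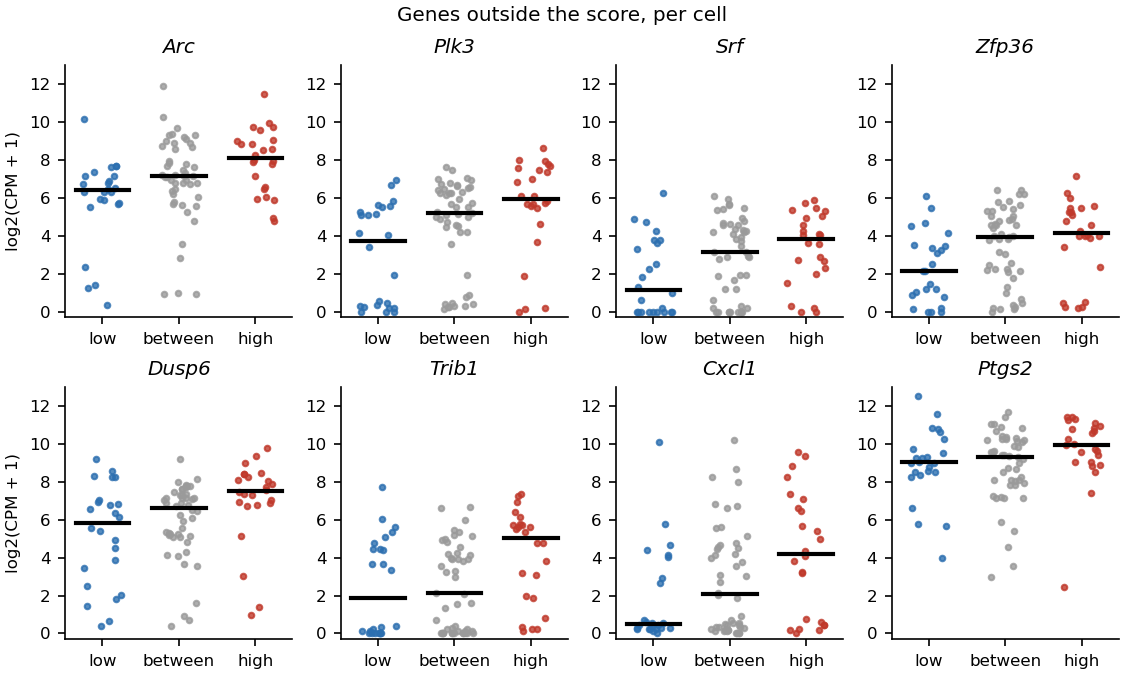
log2(CPM + 1) of 8 genes outside the score in the 24 IEG-low (blue), 48 between (grey) and 24 IEG-high (red) cells, 1 point per cell, with a black line at the median. Medians are higher in IEG-high than in IEG-low cells for all 8 genes, as for Arc (280.3 against 83.6 CPM), while the points of the groups overlap.

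The MAPK feedback list, mainly of genes whose products limit MAP kinase signalling, had a median difference of 0.63, and 17 of 20 genes were above 0. Called higher were 7 of 20 (35.0%, against 4.57% of all genes) and called lower none. Dusp6, the cytoplasmic ERK phosphatase gene, had a median of 184 CPM (0.948 to 879) in IEG-high, 98.2 in between and 57.7 (0.313 to 595) in IEG-low cells, a difference of 1.75. Spry4, of the Sprouty inhibitors of receptor signalling, had a median of 17.2 CPM (0 to 137) against 0.108 (0 to 60.5) and differed by 2.11. It reached 10 counts in 18 IEG-high and 7 IEG-low cells. The pseudokinase gene Trib1 differed by 1.62, the EGF receptor inhibitor gene Errfi1 by 1.42, the nuclear phosphatase genes Dusp5 by 1.10 and Dusp4 by 1.06, and Phlda1 by 1.06. Dusp1, the classical immediate early phosphatase gene, differed by 0.64. The ETS factor genes Etv4 (-0.23) and Etv5 (-0.18), which report FGF and ERK signalling in many tissues, did not share the direction. Within sets, the list had a median of 0.55 with 5 of 20 genes called higher, against 4.40% of all genes.

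Among ligands and receptors of the EGF family, 2 of 8 compared genes were called higher (25.0%, against 4.57% of all genes) and the median difference was 0.60. Within sets the median was 0.66, again with 2 called higher (25.0%, against 4.40% of all genes). Both were ligands. Hbegf had a median of 269 CPM (0.902 to 781) in IEG-high, 114 in between and 58.5 (0.182 to 982) in IEG-low cells, a difference of 1.61. Tgfa had medians of 81.9 and 45.4 CPM and differed by 1.31. The receptor gene Egfr differed by 0.94 and Areg, another ligand, by 0.80, whereas Ereg had medians of 13.0 and 15.2 CPM and a difference of -0.16. Erbb2 and Erbb3 differed by 0.35 and 0.11.

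NF-kB and wound cytokine genes had a median difference of 0.75, and 4 of 16 were called higher (25.0%, against 4.57% of all genes) and none lower. Within sets the median was 0.37, and 4 genes were called higher (25.0%, against 4.40% of all genes). The neutrophil chemokine gene Cxcl1 had a median of 17.5 CPM (0 to 761) in IEG-high, 3.26 in between and 0.419 (0 to 1107) in IEG-low cells, a difference of 2.36. Nfkbia, which codes for the NF-kB inhibitor, had 26.5 to 1234 CPM (median 338) against 1.12 to 884 (median 158) and differed by 1.16. Relb differed by 1.32 with medians near 0 in both groups (0.117 and 0), and Ccl20 by 1.13 with 10 counts in only 8 IEG-high and 2 IEG-low cells, so that few cells set both values. Ptgs2, the inducible cyclooxygenase gene, had medians of 989 and 525 CPM and differed by 0.80. Il6, Il1b and Tnf were counted in 3, 1 and 1 of the 96 cells.

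**Figure D3:**
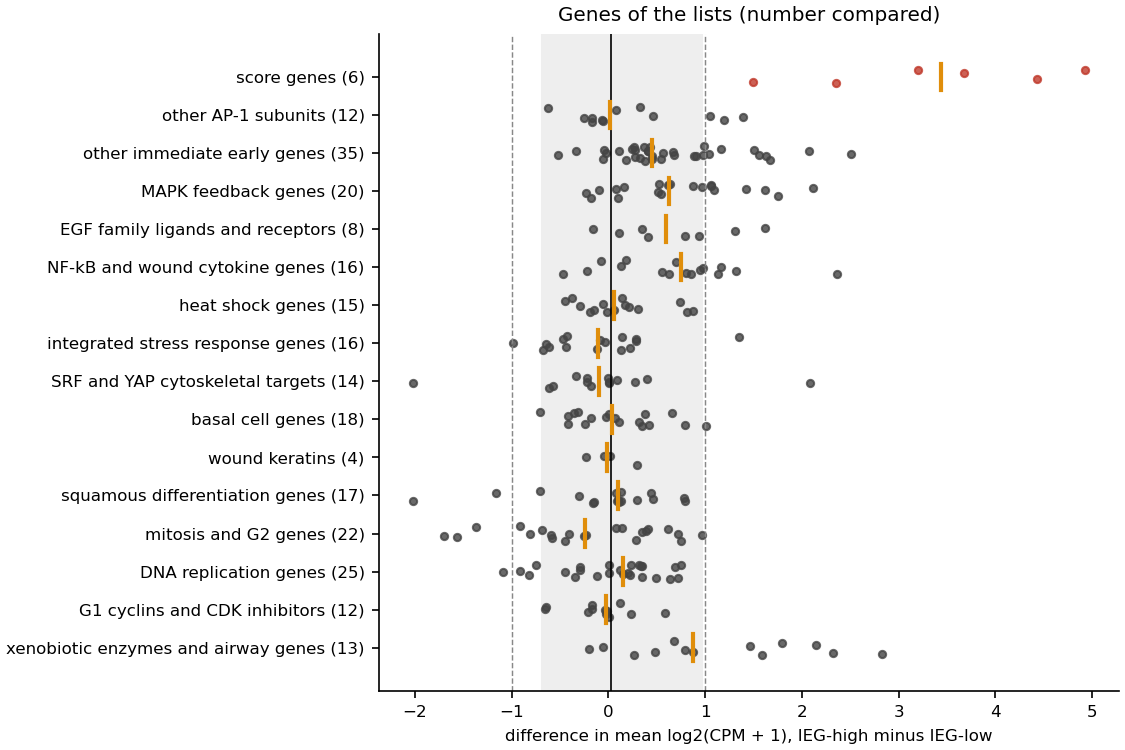
Difference in mean log2(CPM + 1) between IEG-high and IEG-low cells for each compared gene of 16 lists (points, score genes in red), with the median of each list (orange), the median of all 14463 genes (black line), their 5th to 95th percentile (grey band) and the limit of 1 either way (dashed). The MAPK feedback (median 0.63), NF-kB (0.75) and xenobiotic (0.87) lists lie to the right of the median of all genes, 0.03.

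Stress genes of other kinds differed little as lists. Of 15 heat shock genes none was called and the median difference was 0.06. Hspa1a and Hspa1b, the inducible HSP70 genes, differed by 0.81 and 0.87, against -0.45 for Dnajb1 and -0.29 for Hsp90aa1. Within sets, 2 of 15 heat shock genes were called higher (13.3%, against 4.40% of all genes), with a list median of 0.003. They were Hspa1a (1.83) and Hspa1b (1.13). Among 16 integrated stress response genes the median was -0.10 and Nupr1 (1.36) was the single one called (6.25%, against 4.57% of all genes). Chac1 (-0.98) and Asns (-0.68), 2 targets of ATF4, were lower in mean. The median level of Nupr1 in cells between the groups, 49.8 CPM, was as high as in IEG-high cells, 47.6 CPM.

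Cytoskeletal targets of SRF with its MRTF partners and of YAP also differed little, with a median of -0.09 over 14 genes. The matrix gene Thbs1 was called higher (2.08, medians of 37.2 and 0.275 CPM) and Amotl2 called lower (-2.01, medians of 0.556 and 27.6 CPM). Each is 7.14% of the list, against 4.57% of all genes called higher and 1.65% called lower. The actin gene Actg1, the vinculin gene Vcl and Tagln2 all differed by less than 0.01. The difference in Srf itself was thus not matched in this list.

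Markers of HBC identity were detected in all cells of both groups, with higher medians in IEG-high cells. The HBC markers Krt5 (medians of 3611 and 2283 CPM), Krt14 (4395 and 3104 CPM) and Trp63, which codes for p63 (265 and 151 CPM), had at least 10 counts in all 48 cells. Among 18 basal cell genes the median difference was 0.04, with Krt15 (1.01) alone called higher (5.56%, near the 4.57% of all genes). The 4 wound keratin genes Krt6a, Krt6b, Krt16 and Krt17 had differences from -0.23 to 0.30. Of 17 squamous genes, Serpinb2 (-2.02) and Sbsn (-1.16) were called lower (11.8%, against 1.65% of all genes) and the median was 0.10. Serpinb2 codes for a plasminogen activator inhibitor of differentiating keratinocytes, and its median was 0.680 CPM in IEG-high, 1.82 in between and 11.6 in IEG-low cells.

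Cell cycle genes had list medians near 0, and those of the mitosis and DNA replication genes depended on the cells taken. The median difference was -0.24 over 22 mitosis and G2 genes, 0.15 over 25 DNA replication genes and -0.03 over 12 G1 cyclin and CDK inhibitor genes. The B cyclin genes were among 3 mitosis genes called lower (13.6%, against 1.65% of all genes). Ccnb1 had 0.446 to 689 CPM (median 57.1) in IEG-high and 16.7 to 704 (median 149) in IEG-low cells, a difference of -1.70. Ccnb2 had a median of 35.8 CPM against 96 and differed by -1.56, and the centromere histone gene Cenpa by -1.36. Aurka (0.97) and Plk1 (0.72), kinase genes of the same phase, had the opposite sign. The median of the mitosis list changed with the cells taken. It was -0.92 when cells were chosen within sets, with 11 of 22 genes called lower, against 301 of all 14463 genes. The mitosis median ranged from -0.62 to 0.32 when 1 set was left out in turn. Within sets the DNA replication list had a median of -0.20, with 6 of 25 genes above 0 (24.0%, against 48.7% of all genes). The proliferation-associated chromatin gene Hmga2 had medians of 135 CPM in IEG-high, 276 in between and 316 in IEG-low cells, a difference of -1.16, and the replication gene Ccne2 differed by -1.09.

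Xenobiotic enzymes and airway genes had 6 of 13 genes called higher (46.2%, against 4.57% of all genes), the largest share among the lists of 4 or more compared genes outside the score, and a median of 0.87. The carboxylesterase gene Ces1d had a median of 58.9 CPM (0 to 314) in IEG-high, 14.3 in between and 0.355 (0 to 277) in IEG-low cells, a difference of 2.83. The water channel gene Aqp4 had a median of 152 CPM (0.617 to 1531) against 16.1 (0.295 to 443) and differed by 2.32. Lypd2 differed by 2.15, the retinol dehydrogenase gene Adh7 by 1.79, the aldehyde dehydrogenase gene Aldh3a1 by 1.59 and Aqp5 by 1.47. Within sets the list kept a median of 0.67 with 4 genes called higher (30.8%, against 4.40% of all genes), and the difference of Adh7 was then -0.04.

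Markers of other cell types were rare. Of 18 genes of other OE cell types, 6 were at 0 in all IEG-high and 7 in all IEG-low cells, Cnga2, Ermn, Cyp1a2 and Kit among them, and the summed level of the list ranged from 0 to 40.9 CPM (median 0.436) in IEG-high and from 0 to 37.9 CPM (median 0.255) in IEG-low cells. Of 19 fibroblast, endothelial and immune markers, 12 were at 0 in all IEG-high and 9 in all IEG-low cells, and the summed level ranged from 0.0833 to 287 CPM (median 15.7) against 0.108 to 71.1 CPM (median 2.19). The lysosomal gene Cd68, the only one of the list that was compared, had medians of 10.5 and 0.257 CPM and differed by 1.59. The macrophage genes Tyrobp and C1qa had no count in any cell, and Ptprc and Lyz2 had none in IEG-high cells.

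Ranked by the share of couples in which the IEG-high cell was higher, the first gene after the score genes was Acadvl, which codes for the very long chain acyl-CoA dehydrogenase of mitochondria. It had 92.9 to 442 CPM (median 181) in IEG-high, a median of 115 in between and 0.536 to 215 (median 83) in IEG-low cells, and was higher in the IEG-high cell in 88.9% of the couples. Its promoter window held an AP-1 motif 17 bases after the start. The next were Atp13a2 (2.48), a lysosomal polyamine transporter gene, Tmem69 (1.92), Plk3, Nek8 (2.15), Arc, 1500011B03Rik (2.02), Mpp5 (2.38), a Crumbs polarity complex gene, and the death domain adaptor gene Fadd (1.79). Lowest ranked were the sarcoglycan gene Sgcb (-2.22, medians of 4.18 and 42.1 CPM), Wdr55 (-1.54), the adaptor gene Grb14 (-1.64) and Hmga2. These ranks come from the cells that were chosen and have no independent support.

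The 48 cells between the groups, which the contrast did not use, gave a separate reading. Their scores ran only from 4.31 to 6.07. For the 655 called-higher genes outside the score, the Spearman correlation with the score was above 0 in 287 (43.8%), as in 43.5% of all tested genes outside the score. The called-lower genes had 47.9%. The called genes as a whole thus did not track the score over the middle of its range.

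Several lists did so more often than all genes, signalling lists and others alike. Correlations were above 0 for 24 of 35 other immediate early genes, 15 of 20 MAPK feedback genes and 14 of 16 NF-kB and cytokine genes, but also for 19 of 25 DNA replication genes, 13 of 18 basal cell genes, all 4 wound keratin genes and 11 of 17 squamous genes. Among the immediate early, AP-1, EGF family and NF-kB genes, the values were 0.53 for Ppp1r15a, 0.52 for the ligand gene Ereg, 0.47 for Ptgs2, 0.47 for Ccn1, 0.46 for Fosl1, 0.42 for Ier3 and 0.41 for Hbegf. Arc (0.13), Plk3 (0.03), Srf (0.02) and Dusp6 (0.02), with the larger differences between the ends, were near 0. Of 13 xenobiotic genes only 2 were above 0, and of 22 mitosis genes 1. The 48 points include both sisters of 15 pairs, and weak correlations in single cells are not findings.

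**Figure D4:**
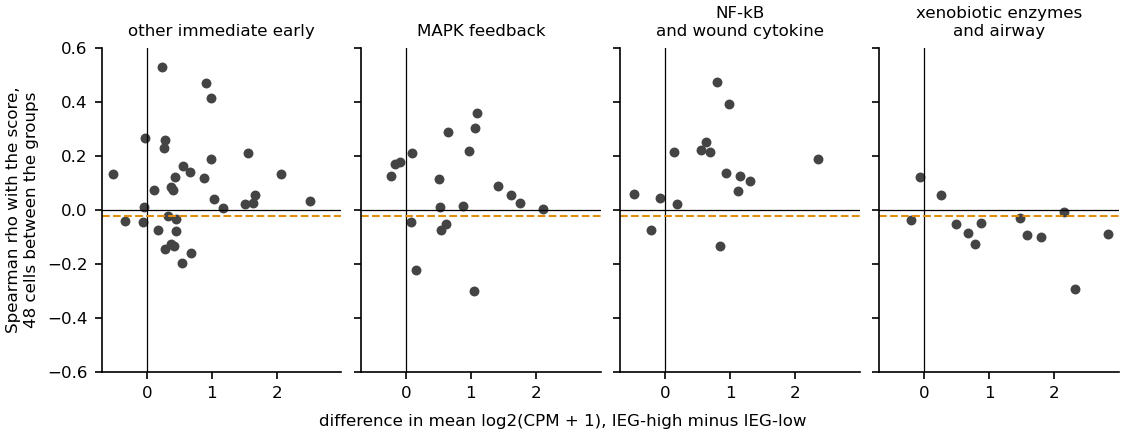
Spearman correlation with the score over the 48 cells between the groups (vertical axis) against the difference in mean log2(CPM + 1) between IEG-high and IEG-low cells (horizontal axis), 1 point per gene of 4 lists, with the median correlation of all genes dashed. Correlations lie above 0 for 14 of 16 NF-kB and cytokine genes and for 2 of 13 xenobiotic and airway genes.

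The labels pair the cells as sisters, and the rule did not use the pairing, although the classes of the sisters come from its scores. Both sisters were IEG-high in 5 of 48 pairs (10.4%, exact Clopper-Pearson 95% interval 3.47% to 22.7%, which covers counting error only) and both IEG-low in 5, while 5 pairs held 1 cell of each group. The other pairs were 9 with an IEG-high and a between cell, 9 with an IEG-low and a between cell, and 15 with both between. Of the 24 IEG-high cells, 10 (41.7%), that is, the same 5 pairs counted from both ends, had an IEG-high sister, whereas 23 of the other 95 cells (24.2%) were IEG-high for any given IEG-high cell. The same counts held for IEG-low cells. An opposite sister was found for 5 of 24 (20.8%) against 24 of 95 (25.3%). With so few pairs, a difference between these shares is not shown.

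**Figure D5:**
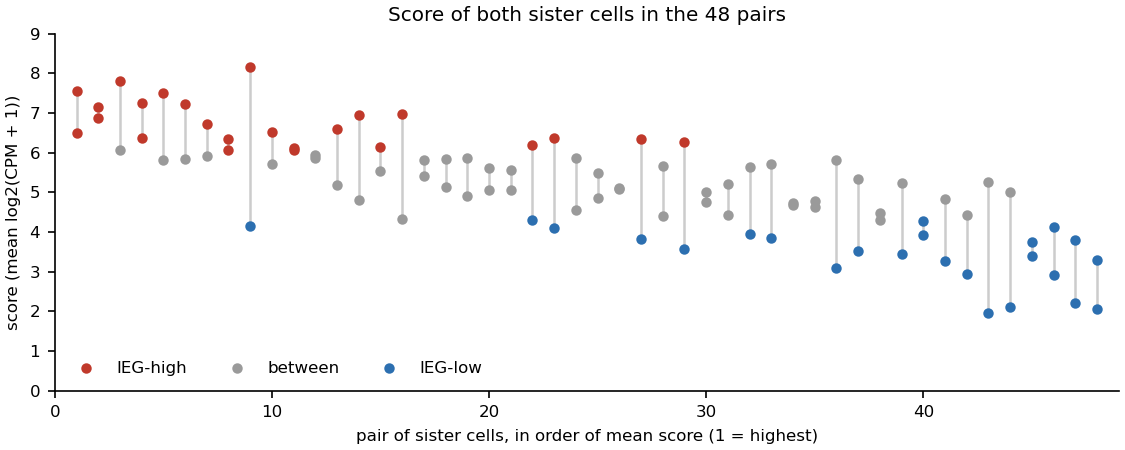
Score of both sister cells (points joined by a line) in the 48 pairs, in order of their mean, with IEG-high cells in red, IEG-low in blue and between in grey. Differences within a pair reach 4.00, and 5 lines join a red to a blue point.

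Pairs accounted for 29.3% of the variance of the score (intraclass correlation over 48 pairs), above the value of 81.4% of tested genes, whose median was 11.1%. For single genes it was 34.7% for Fos, 21.1% for Egr1, 17.1% for Jun, 12.4% for Fosb, 7.95% for Junb and -7.29% for Atf3, that is, none for Atf3. Sisters differed in score by 0.0224 to 4.00 with a median of 1.22. Over 48 pairs these shares are imprecise, and neither their order among the genes nor their distance from that of all genes was tested.

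In the 5 pairs with an IEG-high and an IEG-low sister, different genes set the score. In pair 24 the sisters had 850 and 36.2 CPM of Fos, 488 and 3.78 CPM of Egr1, and 126 and 0 CPM of Atf3. In pair 16 they had 234 and 62.6 CPM of Fos, with Jun near equal at 67.4 and 66.2 CPM. In pair 28, Fos had 217 and 137 CPM and Fosb 53.1 and 0.136 CPM. In pairs 23 and 48 the IEG-high sister had less Fos. The sisters of pair 23 had 88.9 and 272 CPM of Fos but 388 and 5.59 CPM of Jun and 65.2 and 0.385 CPM of Atf3. Those of pair 48 had 322 and 421 CPM of Fos but 336 and 0.799 CPM of Egr1 and 330 and 0.232 CPM of Junb. Over the 5 pairs, Fosb and Atf3 were higher in the IEG-high sister in all 5, and Egr1 and Junb in 4. Fos and Jun were higher in 3.

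Genes outside the score were read in the same pairs, whose 10 cells are among those the rule chose, so that these values are not independent of the differences above. Plk3, Hbegf, Cxcl1 and Fosl1 were higher in the IEG-high sister in 5 of 5 pairs, Ptgs2 and Nfkbia in 4, and Arc and Dusp6 in 3. Spry4 was higher in 2 pairs, and Dusp1 and Klf4 in 1. Sgk1 had a mean difference of -1.29. These genes are examples, and the share of all genes higher in 5 of 5 pairs is not given. The NF-kB and cytokine list had a median difference of 0.73 between these sisters, the other immediate early genes 0.58 and the MAPK feedback genes 0.53, against 0.03 for all genes. Above 0 were 14 of 16, 22 of 35 and 15 of 20 genes of these lists, against 53.1% of all genes. The xenobiotic and airway list had -0.21, with 3 of 13 genes above 0, so that its difference between the groups was not seen between sisters of the same division.

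Sisters that lay between the groups gave another picture. The 9 between cells with an IEG-high sister and the 9 with an IEG-low sister had similar mean scores of 5.47 and 5.26. Of 13 xenobiotic genes 12 were higher in the former, with a median difference of 0.85. The NF-kB and cytokine list had a median of 1.30 there, with 11 of 16 genes above 0, and the other immediate early genes 0.35, with 28 of 35 above 0. The shift was not particular to these lists. Above 0 were also 20 of 22 mitosis genes (median 0.69), 13 of 17 squamous (0.63) and 12 of 16 integrated stress response genes (0.50). Medians were below 0 for DNA replication (-0.26), basal cell (-0.12) and cytoskeletal target genes (-0.20), among others. Of the 6 score genes 3 were above 0. Of the 655 called-higher genes, 422 (64.4%) were above 0, against 53.6% of all genes. Of the 238 called-lower genes 119 were above 0. Each of these values rests on 18 cells.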

How the data were processed

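Single-cell RNA-seq of 96 HBCs (48 sister pairs) was analysed. Per the labels and the paper's methods, the authors trimmed reads with Trimmomatic 0.39, aligned them to GRCm38 and the ERCC sequences by STAR 2.7.11a, and used StringTie 2.2.1 for counting. The deposited table holds raw counts of 55487 genes and 92 ERCC transcripts. The deposited TPM tables, 1 per cell, were scaled by the authors over genes and ERCC and were used for levels between genes and as an alternative. Reads carry no molecular identifiers, so that PCR copies are not independent molecules and intervals cover counting error only. Depth was 29454150 to 44849003 counts on genes per cell.

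CPM left out ERCC. Genes with at least 10 counts in 10% of cells were compared on mean log2(CPM + 1), and a difference of 1 was called. ERCC scaling used the 22 transcripts counted in all cells. As the labels name no mouse or culture, no test was run and no p-value is given. The members and the gene lists were chosen with earlier results of these data known. Genes were named by list (up to 6 with the largest differences, and markers), by the share of couples in which the IEG-high cell was higher, and by correlation with the score in the cells between. Others were chosen after their values were seen, as examples just below the limit, of low counts or of the opposite sign. Doublets were not called, since cells were picked singly. There were 20 alternatives, whose effect is given at the end. The calculation was checked on simulated data. Python 3.11.15, numpy 2.4.6, pandas 2.3.3, scipy 1.17.1 and matplotlib 3.10.9 were used. Promoter windows are from RefSeq (GRCm38.p6).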

Additional observations from a re-analysis of the deposited data

How the results depend on the processing

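Of 291 values recomputed under alternatives, 280 stayed close. Close means within 1 SD over cells for differences and within 1.5 times for counts of genes. For shares and counts of pairs it means within the 95% interval of the value. The SD limit is wide. It was 1.92 for the mitosis list, so that medians from -0.92 to 1.02 all counted as close to -0.24. For differences the count of 280 therefore says little about stability. The counts of called genes moved most. Called-higher genes numbered 2139 with ERCC size factors, 1436 with 16 cells per group, 365 with 32 cells per group and 57 with a pseudocount of 10. Called-lower genes numbered 34, 425, 133 and 21 under the same settings, and 156 with TPM. Smaller groups are by construction more extreme in score and noisier in their means, and a larger pseudocount shrinks differences of genes with low counts. For ERCC and TPM the cause was not tested. Pairs with 1 IEG-high and 1 IEG-low sister numbered 0 with 16 cells per group and 1 when cells were chosen within sets. The interval of 5 pairs is wide, and over all settings pairs with both sisters IEG-high numbered 3 to 9, both IEG-low 2 to 7 and discordant 0 to 7. With each set of 8 cells left out in turn, called-higher genes ranged from 541 to 742, called-lower genes from 186 to 286, and discordant pairs from 4 to 6.

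The median of other immediate early genes was above 0 under all settings run (0.29 to 0.87), whereas that of mitosis genes ranged from -0.92 to 1.02 and that of squamous genes from -0.10 to 0.62, so that neither list has a direction. With the pair as the unit, the 12 pairs of highest and the 12 of lowest mean score gave 757 called-higher and 318 called-lower genes, and a mitosis median of 0.13, against -0.24 for cells.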
